A study of Rattus norvegicus with 32 samples.

Results

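The acute phase plasma proteins of rat liver are described here through 10 genes, Orm1, Saa4, Hp, Lbp, Itih3, Itih4, Fga, Fgb, Fgg and A2m, which encode proteins that the liver secretes into blood. They were taken by symbol from a table of read counts over 17327 genes. Of the 10 genes 9 passed a filter on low counts, as did 11002 genes in all, and A2m did not. RNA sequencing covered the messenger RNA of livers from 32 rats of the Charles River Sprague Dawley strain, sampled under basal conditions. Knockout (KO) rats were made by CRISPR/Cas9 ablation of Serpina6, which encodes corticosteroid-binding globulin, the carrier of corticosterone in blood. The 8 groups of 4 rats were male KO, male wild-type (WT), female KO and female WT rats, each at 60 and at 30 days of age. The title of the series names sexual dimorphism of the adult liver as its subject, and the rats carried no other labelled allele or treatment.

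In the acute phase response the liver changes its output of plasma proteins after injury or infection. Signals that drive transcription of such genes in hepatocytes include interleukin-6 through STAT3, interleukin-1 through NF-kB and C/EBP proteins, and glucocorticoids through the glucocorticoid receptor. Not every gene responds to each signal. The genes are also transcribed at rest, and alpha-2-macroglobulin is the classic exception in the adult rat, where it is low at rest and rises steeply in inflammation.

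Promoters are shown because the results below turn on Orm1, which had the largest fold change, and on the 3 fibrinogen genes, which moved together. RefSeq on the assembly GRCr8 gave the 250 bases before the transcription start for 6 of the 10 genes, Orm1, Itih3, Itih4, Fga, Fgb and Fgg. The Orm1 window lies at chr5:81788259-81788508 on the plus strand, and its capitals mark GNACA and TGTNC 3 bases apart, the palindrome bound by the glucocorticoid receptor. The Fga (chr2:170671919-170672168, plus strand), Fgb (chr2:170700876-170701125, minus strand) and Fgg (chr2:170652833-170653082, plus strand) windows have in capitals CTGGGA on either strand, the core of the interleukin-6 response element described in rat fibrinogen genes.
Orm1: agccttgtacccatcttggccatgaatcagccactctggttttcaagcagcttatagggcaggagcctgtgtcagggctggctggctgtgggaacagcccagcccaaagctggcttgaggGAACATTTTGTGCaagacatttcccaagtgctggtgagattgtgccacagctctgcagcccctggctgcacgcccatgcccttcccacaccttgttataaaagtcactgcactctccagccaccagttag
Fga: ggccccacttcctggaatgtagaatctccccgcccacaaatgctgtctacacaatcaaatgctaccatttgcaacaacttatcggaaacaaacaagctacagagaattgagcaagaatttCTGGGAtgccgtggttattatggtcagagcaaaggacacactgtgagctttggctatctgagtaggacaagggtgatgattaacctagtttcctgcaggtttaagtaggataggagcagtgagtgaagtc
Fgb: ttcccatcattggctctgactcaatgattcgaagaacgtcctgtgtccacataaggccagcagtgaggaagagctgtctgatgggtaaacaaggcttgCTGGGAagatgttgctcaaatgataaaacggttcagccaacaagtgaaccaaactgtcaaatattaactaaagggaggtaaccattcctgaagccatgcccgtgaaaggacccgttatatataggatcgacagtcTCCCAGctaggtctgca
Fgg: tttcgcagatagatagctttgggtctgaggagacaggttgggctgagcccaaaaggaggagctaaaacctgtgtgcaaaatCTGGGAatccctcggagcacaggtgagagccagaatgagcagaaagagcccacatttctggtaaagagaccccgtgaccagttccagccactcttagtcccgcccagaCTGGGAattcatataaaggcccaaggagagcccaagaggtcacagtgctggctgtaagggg
The Orm1 match, GAACATTTTGTGC, spans bases 130 to 118 before the start and overlaps a match to the C/EBP letters TTNNGNAA at bases 123 to 116. Of 33469 promoter windows of the same length 0.373% held that palindrome, and Orm1 was the 1 of the 6 genes with it. CTGGGA stood in Fga, Fgb, Fgg and Itih4 and in 25.7% of all windows. TTNNGNAA stood in Fga, Fgb, Orm1 and Itih4 and in 37.2% of all windows, and the STAT letters TTC and GAA, 3 bases apart, in Fga, Fgb and Itih4 and in 7.67%. RefSeq gives Fga a second window, from 170671937 to 170672186, which holds the CTGGGA and C/EBP matches but not the STAT letters. The NF-kB letters GGGA and TTTCC, 1 base apart, and the HNF1 letters GTTAAT and ATTAAC, 1 base apart, were in 0 of the 6 windows and in 0.314% and 0.00299% of all. The HNF1 letters matched 1 of 33469 windows, so 0 of 6 was all but fixed in advance. Lack of exact letters this rare does not show that looser NF-kB or HNF1 sites are absent. All of the above are matches of letters, searched on both strands and chosen with the sequences in view, and no binding was measured. In the same annotation Fgg, Fga and Fgb lie next to each other on chromosome 2, and Itih4, Itih3 and Itih1 next to each other on chromosome 16.

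Gene reads per library ranged from 12951969 to 21954929, and the 10 genes together took 2.98% to 4.47% of them. Levels are given as CPM, the count of a gene relative to all gene reads of its library, scaled with trimmed mean of M-values (TMM) factors, with the 4 libraries of a group in a fixed order. A fold change is a log2 ratio of group levels ± SE, estimated by edgeR's quasi-likelihood method from all 32 libraries. A gene is called where its Benjamini-Hochberg adjusted p over the 11002 genes is below 0.05. Where members with an unadjusted p below 0.05 are counted, the share of all genes at that threshold is not given. Serpina6 itself stood at 6.24% to 12.9% of WT in KO liver, and no KO library overlapped a WT library of the same sex and age. Hepatocyte markers were abundant in every group, with a summed level of at least 156412 CPM over 8 genes. 1 library stands apart: female KO replicate 1 at 60 days held a summed 2083 CPM of retina transcripts, against 5.01 to 11.2 CPM in the other 3 of its group. Values of the 10 genes and of the lists that use that library are followed by the values without it, where a call or a size depends on it. Titles have another form at each age, so age and any difference in handling between the ages cannot be told apart. At 60 days reads deposited as ambiguous were 0.554% to 0.648% in males and 0.314% to 0.466% in females, while the sexes overlapped at 30 days. Any part of handling in the sex comparisons of 60 days was not tested. The 30-day titles also carry a number after a hyphen, of meaning not stated in the labels, which is 2 in all 4 KO females, 1 in 3 and 2 in 1 of the WT females, and mixed in both groups of males. In whole liver, fewer cells of a type and less RNA per cell cannot be told apart.

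**Figure D1:**
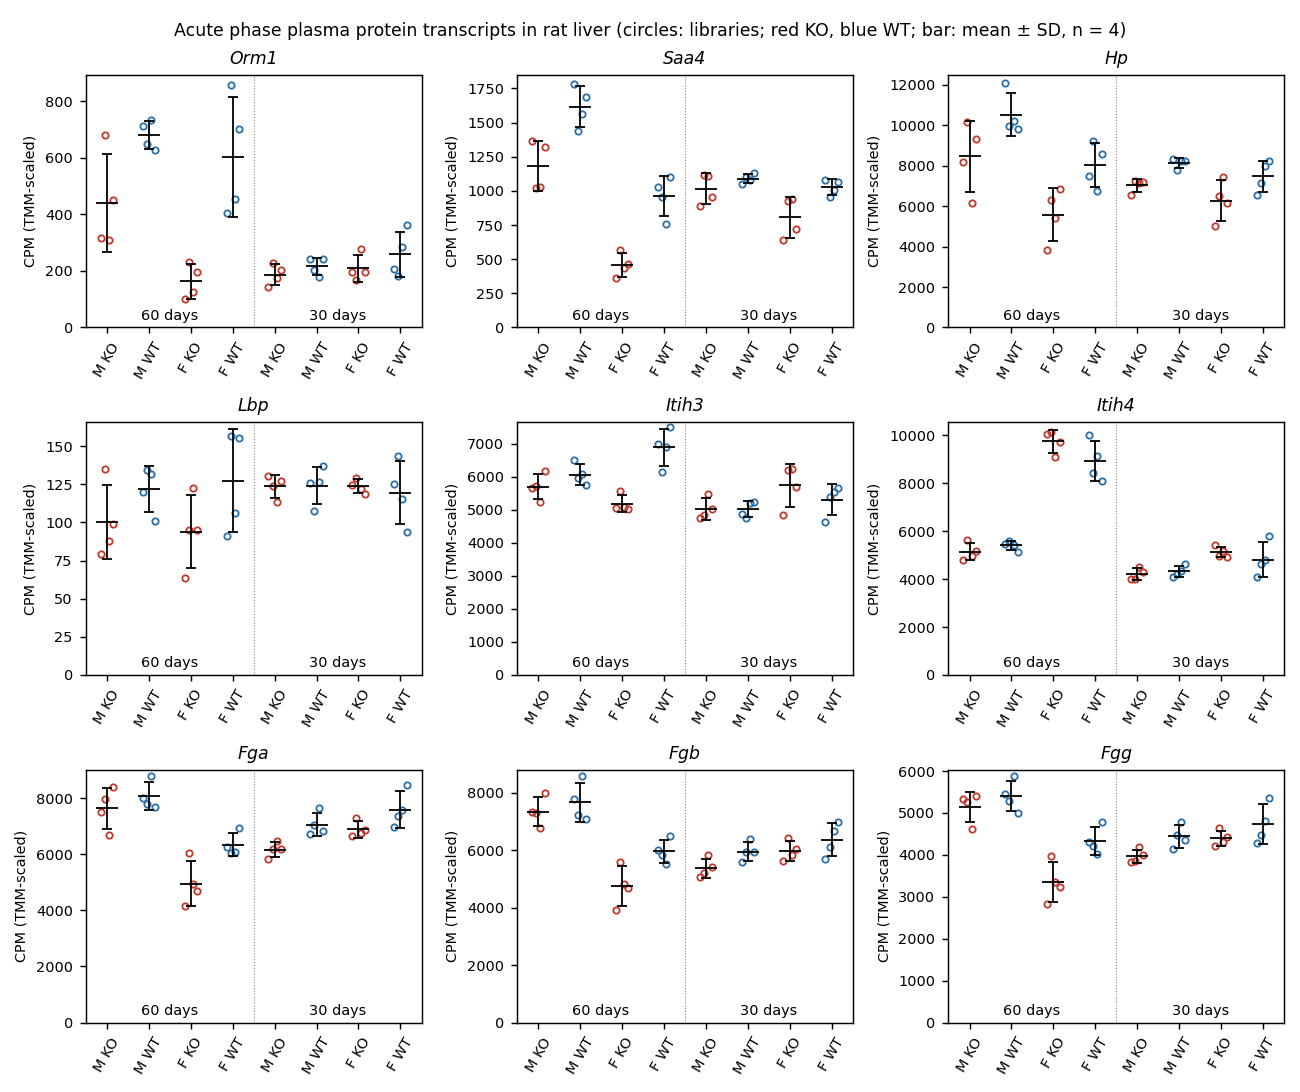
Level of 9 acute phase genes in every library, in CPM scaled with TMM factors on a linear axis from 0, for 8 groups by sex, genotype and age. Circles are libraries (red KO, blue WT) and bars are the mean ± SD (n = 4); the KO females of 60 days lie below the WT females for Orm1, Saa4 and Itih3, and both female groups of 60 days lie above all others for Itih4.

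In 60-day females 7 of the 9 tested genes fell in KO liver, where 3.29% of all genes tested fell and 3.48% rose. The transport protein Orm1 and the apolipoprotein Saa4 fell most, Itih3, Hp and the 3 fibrinogen chains fell less, and Lbp and Itih4 did not pass the test. The median log2 fold change of the 9 was -0.411, against 0.008 over all genes tested. Without the library with retina transcripts the middle value of the 9 was that of Fgg, -0.297. The 3 fibrinogen chains, which moved together, are counted as separate genes.

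Orm1, the alpha-1-acid glycoprotein, which binds basic drugs and steroids in plasma, stood at 99.6, 232, 126 and 198 CPM in KO females. In WT females it stood at 404, 857, 456 and 701 CPM. The highest KO female lay below the lowest WT female, and within both groups the libraries spread more than 2-fold. The fold change was -1.88 ± 0.29 (adjusted p = 0.000223), which puts KO at 27.1% of WT. Saa4, a serum amyloid A apolipoprotein that rides on high-density lipoprotein and is expressed constitutively in human and mouse liver, stood at 360, 568, 437 and 466 CPM in KO females. Its WT levels were 1032, 957, 758 and 1103 CPM, so the groups did not overlap, and the fold change was -1.07 ± 0.13 (adjusted p = 9.77e-06).

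Hp encodes haptoglobin, which captures free haemoglobin. It stood at 3823, 6291, 5406 and 6827 CPM in KO females and at 7499, 9235, 6770 and 8604 CPM in WT females. The highest KO library passed the lowest WT library, and the fold change was -0.52 ± 0.14 (adjusted p = 0.0258). Lbp encodes the lipopolysaccharide-binding protein, which hands bacterial lipopolysaccharide to CD14. It had 63.8, 94.8, 123 and 94.7 CPM in KO females, against 91.0, 157, 106 and 155 CPM in WT females, with overlap and a fold change of -0.44 ± 0.17 (adjusted p = 0.139).

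The pair of inter-alpha-trypsin inhibitor heavy chains, whose genes lie side by side, differed from each other. Itih3 stood at 5049, 5572, 5086 and 5025 CPM in KO females, against 6992, 6157, 6909 and 7514 CPM in WT females. The groups did not overlap, and the fold change was -0.41 ± 0.08 (adjusted p = 0.00241). Itih4 stood at 10057, 10139, 9071 and 9712 CPM in KO females, against 10000, 8437, 9132 and 8104 CPM in WT females, and its fold change was 0.13 ± 0.08 (adjusted p = 0.402). The interval for Itih4 was -0.041 to 0.297 and that for Itih3 was -0.578 to -0.245.

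Fga, Fgb and Fgg encode the 3 chains of fibrinogen, the precursor of fibrin. Fga stood at 4136, 6026, 4938 and 4688 CPM in KO females and at 6266, 6053, 6072 and 6928 CPM in WT females. Fgg had 2824, 3971, 3355 and 3243 CPM in KO females, against 4307, 4202, 4009 and 4793 CPM in WT females. For Fga and Fgg the groups were apart by a narrow margin, set by KO replicate 2. Fgb, with 3909, 5602, 4807 and 4682 CPM in KO females and 6011, 5823, 5501 and 6474 CPM in WT females, overlapped through that library. The fold changes were -0.36 ± 0.09 for Fga (adjusted p = 0.0133), -0.33 ± 0.09 for Fgb (adjusted p = 0.0242) and -0.37 ± 0.09 for Fgg (adjusted p = 0.00846). Groups without overlap, KO lower, were found for 5 of the 9 genes (Orm1, Saa4, Itih3, Fga and Fgg) and for 3.94% of all genes tested.

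The library with retina transcripts was the lowest of its group for Orm1, Saa4, Hp, Lbp and all 3 fibrinogen genes. Without it 4 genes were called, Orm1 (-1.71, adjusted p = 0.0017), Saa4 (-0.97, adjusted p = 9.51e-05), Itih3 (-0.40, adjusted p = 0.00939) and Fgg (-0.30, adjusted p = 0.048). In that fit 1.87% of all genes tested fell and 1.73% rose. Hp, Fga and Fgb then had adjusted p = 0.118, 0.0715 and 0.119, and the count was also 4 without WT female replicate 4. A fit restricted to the 60-day libraries called 3, and a fit to the 8 libraries compared called 1, Saa4. A clock score, the mean log2 level of Dbp, Per2, Per3 and Tef minus that of Arntl, Npas2 and Clock, was -1.27 to 0.34 in KO females and -2.45 to -1.91 in WT females, so it moved with genotype (-1.27 to -0.03 in KO females without the retina-transcript library). With that score as a covariate 0 of the 9 were called. Orm1 then had -1.99 ± 0.49 (adjusted p = 0.106), Saa4 -0.87 ± 0.22 (adjusted p = 0.12) and Itih3 -0.43 ± 0.14 (adjusted p = 0.264), with SEs 1.71, 1.68 and 1.7 times as large. The labels give no hour of collection, and its part in the result was not tested. For the other fits of this paragraph the share of all genes called is not given. A loss of calls among the 9 is thus not set against a general loss here.

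**Figure D2:**
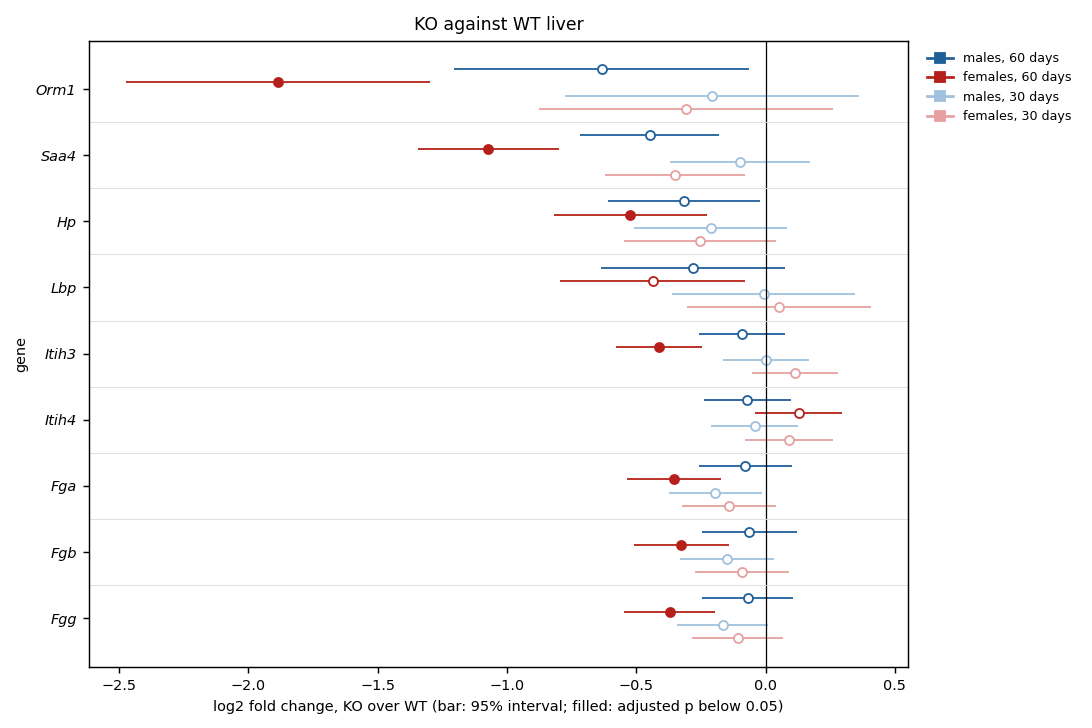
Log2 fold change of KO over WT for 9 genes (x axis) in each sex and age, with 95% intervals from edgeR; filled circles have an adjusted p below 0.05. The 7 filled circles all belong to 60-day females, all left of 0, with Orm1 at -1.88 and Saa4 at -1.07.

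In 60-day males 0 of the 9 genes were called between KO and WT, where edgeR called 0.209% of all genes, and DESeq2 and limma-voom called 0 of the 9 as well. All 9 fold changes were below 0, with a median of -0.090 against 0.001 over all genes, and 3 had an unadjusted p below 0.05. Saa4 stood at 1362, 1023, 1030 and 1324 CPM in KO males and at 1781, 1436, 1561 and 1688 CPM in WT males. Its groups did not overlap, as in 2.68% of all genes with KO lower, and its fold change of -0.45 ± 0.13 did not pass (adjusted p = 0.175). Orm1 had 315, 680, 311 and 450 CPM in KO males, against 712, 648, 734 and 629 CPM in WT males, with 1 KO library inside the WT range (-0.63 ± 0.28, adjusted p = 0.393). The fibrinogen chains lay between -0.08 and -0.06 in males, and their intervals ran from -0.258 to 0.120.

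The difference between the sexes in the KO effect at 60 days was tested as an interaction, which called 0 of the 9 genes and 0.136% of all genes by edgeR. DESeq2 and limma-voom also called 0 of the 9. 6 of the 9 had an unadjusted p below 0.05, all with KO lower by more in females, among them Orm1 (1.25 ± 0.39, adjusted p = 0.203) and Saa4 (0.62 ± 0.19, adjusted p = 0.185). No share of all genes at that unadjusted threshold is given, so the 6 are not read as a trend of these genes. A difference in the KO effect between the sexes was thus not established for any of the 9.

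At 30 days 0 of the 9 genes were called between KO and WT in females, where 0.3% of all genes were, or in males, where 0.0545% were. DESeq2 and limma-voom called 0 of the 9 in both sexes, and 1 gene in each had an unadjusted p below 0.05. That gene was Saa4 in females, at 638, 929, 940 and 718 CPM in KO and 1082, 954, 1010 and 1066 CPM in WT (-0.35 ± 0.13, adjusted p = 0.3), without overlap, as in 3.92% of all genes with KO lower. In males it was Fga, at 5821, 6181, 6473 and 6184 CPM in KO and 6710, 7047, 7633 and 6812 CPM in WT (-0.19 ± 0.09, adjusted p = 0.813). Fga and Hp did not overlap in males, as 3.49% of all genes did not with KO lower. The interaction of sex with genotype at 30 days called 0 of the 9 and 0% of all genes by edgeR, with 0 of the 9 at an unadjusted p below 0.05 and 0 by DESeq2 and limma-voom. With the title number as a covariate in a fit to the 30-day libraries, the values for Saa4 in females (-0.33, adjusted p = 0.327) and Fga in males (-0.19, adjusted p = 0.488) moved little.

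Whether the KO effect changed with age was tested within each sex. In females 3 of the 9 genes were called, all with KO lower by more at 60 than at 30 days, where 1.55% of all genes were called in that direction. They were Orm1 (-1.58 ± 0.39, adjusted p = 0.0266), Saa4 (-0.72 ± 0.19, adjusted p = 0.03) and Itih3 (-0.52 ± 0.11, adjusted p = 0.012). Orm1 stood at 194, 167, 277 and 196 CPM in 30-day KO females and at 206, 182, 284 and 361 CPM in 30-day WT females, with overlap, so the groups parted at 60 days. Itih3 at 30 days was 4834, 6209, 6245 and 5689 CPM in KO females and 4642, 5376, 5553 and 5669 CPM in WT females, with the KO mean the higher one.

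Leaving out 1 library at a time, Itih3 was called in 16 of 16 fits, and Orm1 and Saa4 in 10 each. Only Itih3 was called without the retina-transcript library, and likewise without WT female replicate 2 or KO female replicate 3 of 30 days or WT female replicate 2 or 4 of 60 days. A fit to the 16 female libraries and the fit with the clock score called 0 of the 9. With the title number of the 30-day libraries as a covariate, an alternative added after seeing the data, Itih3 was called (-0.53, adjusted p = 0.0317), and Orm1 (-1.38, adjusted p = 0.098) and Saa4 (-0.74, adjusted p = 0.0665) were not. In males the same interaction called 0 of the 9 and 0.00909% of all genes by edgeR, with 0 of the 9 at an unadjusted p below 0.05 and 0 by DESeq2 and limma-voom.

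At 60 days the sexes differed in 7 of the 9 genes in KO and in 6 in WT liver. In KO, 6 were higher in males (9.63% of all genes were) and 1 was higher in females (8.89% of all genes were). In WT, 5 were higher in males (13.7% of all genes) and 1 in females (12.7% of all genes). Saa4, Hp and the 3 fibrinogen genes were higher in males and Itih4 was higher in females in both genotypes, while Lbp and Itih3 were called in neither.

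The fibrinogen chains differed between the sexes by like amounts. Fgb stood at 7342, 7279, 6756 and 7977 CPM in KO males, against 3909, 5602, 4807 and 4682 CPM in KO females, and at 7781, 7225, 8569 and 7072 CPM in WT males, against 6011, 5823, 5501 and 6474 CPM in WT females. No male library overlapped a female one in either genotype. For comparisons of sex and of age, here and below, the share of all genes without overlap is not given. In KO the male-over-female fold changes were 0.63 ± 0.09 for Fga (adjusted p = 3.98e-06), 0.63 ± 0.09 for Fgb (adjusted p = 4.24e-06) and 0.62 ± 0.09 for Fgg (adjusted p = 2.89e-06). In WT they were 0.35 ± 0.09, 0.36 ± 0.09 and 0.32 ± 0.09 (adjusted p = 0.00348, 0.00246 and 0.00551). Without the retina-transcript library the KO values were 0.54 to 0.55, and all 7 KO calls held.

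Itih4 ran the other way. It stood at 4808, 5632, 4949 and 5187 CPM in KO males, against 10057, 10139, 9071 and 9712 CPM in KO females (-0.92 ± 0.08, adjusted p = 1.51e-09). In WT it stood at 5457, 5586, 5416 and 5141 CPM in males, against 10000, 8437, 9132 and 8104 CPM in females (-0.72 ± 0.08, adjusted p = 8.4e-08). Every 60-day female library lay above every 60-day male library. Its neighbour Itih3 did not pass in KO (0.14 ± 0.08, adjusted p = 0.273) or in WT (-0.18 ± 0.08, adjusted p = 0.0958).

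Saa4 was higher in males by 1.37 ± 0.13 in KO (adjusted p = 6.91e-09) and by 0.75 ± 0.13 in WT (adjusted p = 7.26e-05), without overlap in either. Orm1 was higher in KO males than in KO females by 1.42 ± 0.28 (adjusted p = 0.000519), and 1.25 without the retina-transcript library. In WT the Orm1 difference of 0.17 ± 0.28 did not pass (adjusted p = 0.701), with an interval of -0.395 to 0.739. The test of whether these sex differences depended on genotype is the interaction given above, which called none of the 9 (6 of them at an unadjusted p below 0.05; 0 by DESeq2 and limma-voom). Hp was higher in males by 0.60 ± 0.14 in KO (adjusted p = 0.00307) and by 0.39 ± 0.14 in WT (adjusted p = 0.0432). The KO value of Hp was 0.45 without the retina-transcript library (adjusted p = 0.02). The Hp call in KO was lost in a fit to the groups compared (adjusted p = 0.0797) and with the clock score (adjusted p = 0.143). The Hp call in WT held in 3 of 8 fits that left out a library and was lost by library size only, with the deposited log2 values and in a fit restricted to the 60-day libraries.

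**Figure D3:**
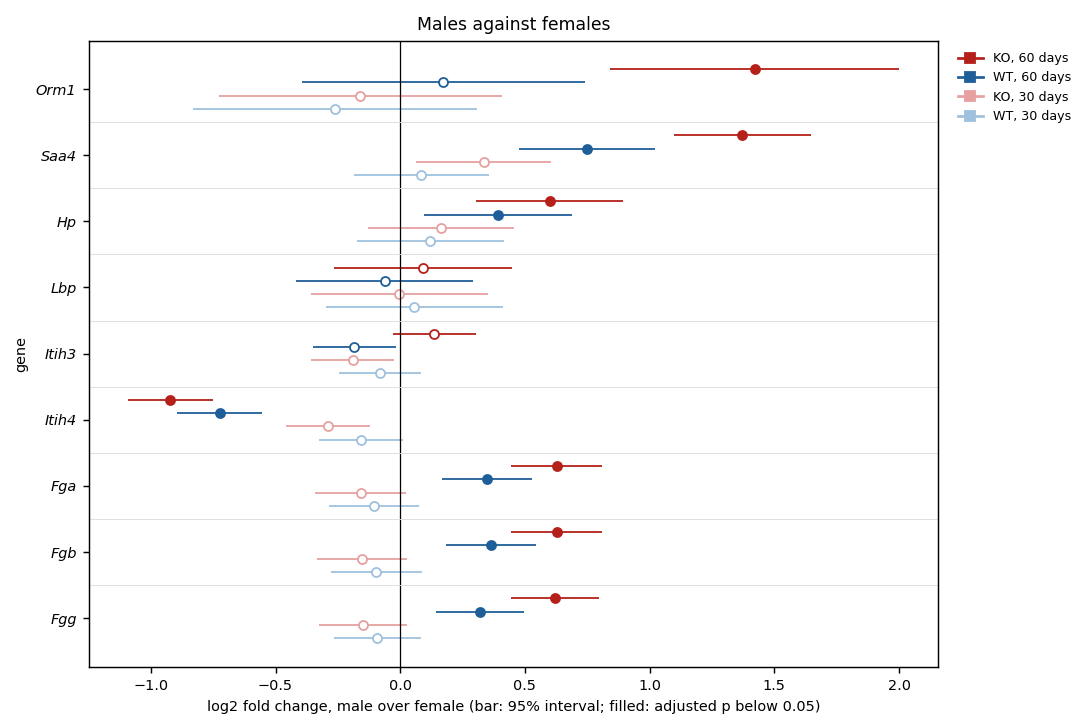
Log2 fold change of males over females for 9 genes (x axis) in each genotype and age, with 95% intervals from edgeR; filled circles have an adjusted p below 0.05. The filled circles are all at 60 days, right of 0 for Saa4, Hp, the 3 fibrinogen genes and, in KO, Orm1, and left of 0 for Itih4.

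At 30 days edgeR called 0 of the 9 genes between the sexes in KO, where 2.24% of all genes were called and 3 of the 9 had an unadjusted p below 0.05. It called 0 of the 9 in WT, where 2.07% of all genes were called and 0 of the 9 had an unadjusted p below 0.05. In KO, Itih4 came closest, at 3990, 3992, 4501 and 4287 CPM in males and 5407, 4977, 5189 and 4927 CPM in females (-0.29 ± 0.08, adjusted p = 0.0587). DESeq2 and limma-voom each called that 1 gene in KO and 0 in WT.

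Between 30 and 60 days some of the 9 genes took different courses in the sexes, as tested further below. In KO males 5 of the 9 were higher at 60 days (14% of all genes were), and in WT males 7 were (15.7% of all genes). In KO females 1 was higher and 4 lower (10.6% and 12.1%), and in WT females 3 were higher and 1 lower (16% and 17.1%).

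Orm1 was higher at 60 days in KO males (1.23 ± 0.28, adjusted p = 0.00146), in WT males (1.66 ± 0.28, adjusted p = 5.83e-05) and in WT females (1.23 ± 0.28, adjusted p = 0.00125). In KO males it stood at 315, 680, 311 and 450 CPM at 60 days and at 142, 229, 175 and 202 CPM at 30 days. In WT males it stood at 712, 648, 734 and 629 CPM at 60 days and at 240, 202, 179 and 242 CPM at 30 days, and in none of these 3 groups did the ages overlap. KO females had 99.6 to 232 CPM at 60 days and 167 to 277 CPM at 30 days, with overlap and a fold change of -0.35 ± 0.28 (adjusted p = 0.406).

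Itih4 was higher at 60 days in all 4 groups, by 0.93 ± 0.08 in KO females and 0.89 ± 0.08 in WT females (adjusted p = 3.46e-09 and 1.54e-09). The rise was 0.30 ± 0.08 in KO males and 0.32 ± 0.08 in WT males (adjusted p = 0.00751 and 0.00334). The fibrinogen genes parted by sex: in KO males Fga, Fgb and Fgg were higher by 0.31, 0.45 and 0.38, while in KO females they were lower by a log2 fold change of -0.48, -0.33 and -0.39, each called. Without the retina-transcript library these 3 values were -0.40, -0.25 and -0.32, and all were still called. In WT males Fgb and Fgg were higher by 0.36 and 0.28, and in WT females Fga was lower (-0.26 ± 0.09, adjusted p = 0.0226), a call lost in 3 of 8 fits without a library. Saa4 was higher in WT males (0.57 ± 0.13, adjusted p = 0.00138) and lower in KO females (-0.82 ± 0.13, adjusted p = 3.12e-05; -0.72 without the retina-transcript library, adjusted p = 0.000287). Itih3 was higher in WT males (0.27 ± 0.08) and WT females (0.38 ± 0.08, adjusted p = 0.000593). Hp was called in WT males alone (0.37 ± 0.14, adjusted p = 0.0489), and that call was lost in 8 of 8 fits without a library.

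Without scaling between libraries the median over all genes moved by -0.117 to -0.193 in the age comparisons. The counts then came to 3 in KO males (Orm1 and Fgb higher, Lbp lower) and 3 in WT males (Orm1, Saa4 and Fgb higher). Itih4, Fga and Fgg in KO males and Itih3, Itih4, Hp and Fgg in WT males were not called then, while Orm1 stayed called at 1.04 in KO males (adjusted p = 0.00428) and was called in WT males too (adjusted p = 0.000147).

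**Figure D4:**
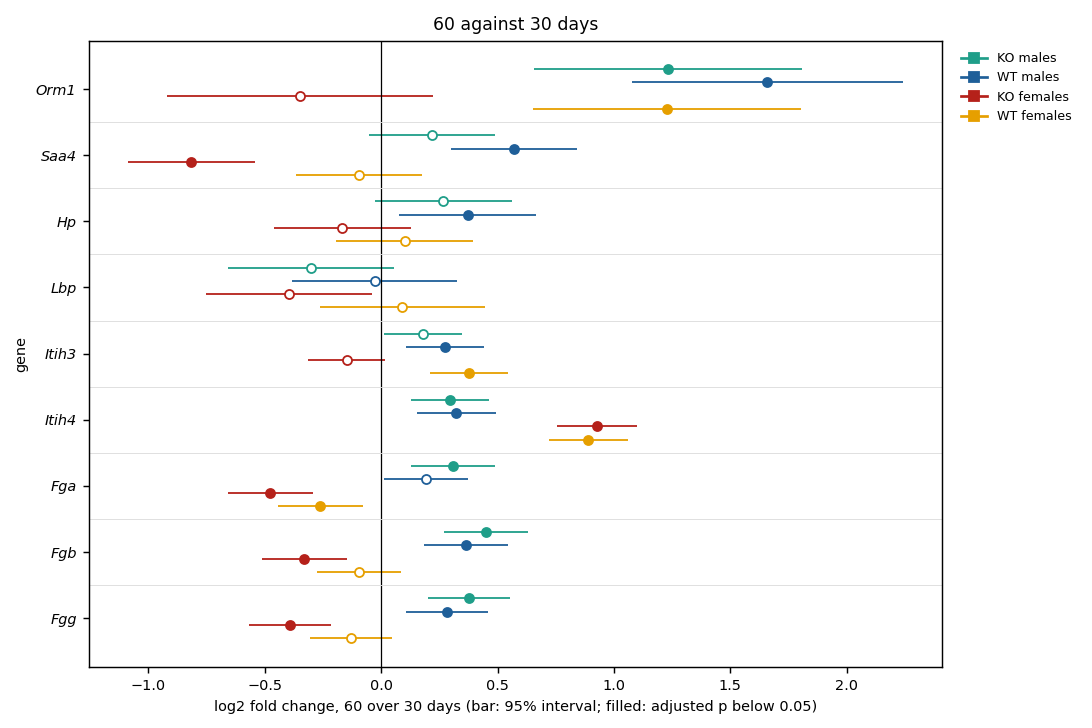
Log2 fold change of 60 over 30 days for 9 genes (x axis) in 4 groups by sex and genotype, with 95% intervals from edgeR; filled circles have an adjusted p below 0.05. Itih4 lies right of 0 in all 4 groups, Orm1 in 3, and the fibrinogen genes lie right of 0 in males and left of 0 in females.

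Whether males and females differed in their change with age was tested in the same fit, a pair of contrasts added after these courses had been seen. In KO, 5 of the 9 genes had a higher male than female change and 1 a lower one (2.79% and 1.9% of all genes). They were Orm1 (1.58 ± 0.39, adjusted p = 0.0166), Saa4 (1.04 ± 0.19, adjusted p = 0.000945), Fga, Fgb and Fgg (0.79, 0.78 and 0.77), and Itih4 on the other side (-0.63 ± 0.12, adjusted p = 0.00125). Without the retina-transcript library all 6 were called, with Orm1 at 1.41 (adjusted p = 0.0437). With the clock score as a covariate Orm1 (1.64, adjusted p = 0.0806) and Itih4 (-0.50, adjusted p = 0.0583) lost their calls. In WT, 4 were higher and 1 lower (4.62% and 4.38% of all genes), Saa4 (0.66 ± 0.19, adjusted p = 0.0213), Fga, Fgb and Fgg (0.45, 0.46 and 0.41) and Itih4 (-0.57 ± 0.12, adjusted p = 0.00178). The WT count was 3 without female replicate 4 of 30 days or female replicate 3 of 60 days.

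The 3 fibrinogen chains kept nearly fixed proportions in every library. Of their summed reads, which are not corrected for transcript length, Fga took 37% to 41.1%, Fgb 33.6% to 37.4% and Fgg 24.8% to 26.4%. Fga took 37% to 39% at 60 days and 39.3% to 41.1% at 30 days, with no overlap between the ages. After the 8 group means were taken off, log2 levels over the 32 libraries, which share depth and scaling, correlated at 0.963 for Fgb with Fgg, 0.958 for Fga with Fgg and 0.935 for Fga with Fgb. Each chain thus had the other 2 as its closest genes of all 11002 tested. Among the other members the highest such correlation was 0.772, between Orm1 and Hp, and Itih3 correlated at 0.369 with its neighbour Itih4.

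The genes closest to the remaining members by the same measure were Cmbl (0.797) and Pxmp2 (0.773) for Orm1, and Sult1a1 (0.801) and Dhrs11 (0.792) for Hp. Itih3 was closest to Itih1 (0.761), the next gene along the chromosome, and to Bckdha (0.679). Lbp was closest to Vnn1 (0.780), Itih4 to Tmprss6 (0.698) and Mrpl40 (0.690), and Saa4 to Exosc5 (0.699) and Adk (0.699). These values describe likeness within groups, and no p is given for them.

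A2m, alpha-2-macroglobulin, a broad protease inhibitor, was nearly absent. It had 15 reads in all, spread over 10 of the 16 libraries of 30 days, and 0 reads in the 16 libraries of 60 days. By group at 30 days it had 2 reads in KO males, 4 in WT males, 4 in KO females and 5 in WT females. A count of 0 over the 240466009 gene reads of 60 days allows up to 0.0125 CPM, and this limit covers counting error only. The 15 reads at 30 days lie above what that limit allows, but were too few to pass the filter, so A2m is not among the 9 genes tested, and 2 to 5 reads a group do not separate the genotypes. A2m has murinoglobulin genes next to it in the annotation, and how reads were shared among such relatives in the authors' counting is not stated in the labels.

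Other genes of the acute phase network were read from lists, for KO against WT in 60-day females, where 3.29% of all genes tested fell and 3.48% rose. Without the retina-transcript library, an alternative added after seeing the data, 1.87% fell and 1.73% rose. Of 29 other positive acute phase genes tested 3 were called, all lower, with a median of -0.190 over the 29. They were Serpina3n, a serine protease inhibitor (-0.89 ± 0.22, adjusted p = 0.0121; 1132 ± 182 CPM in KO and 2091 ± 733 CPM in WT, SD, n = 4 each), Apcs, serum amyloid P (-0.40 ± 0.10, adjusted p = 0.0144), and Serpina3c (-0.50 ± 0.14, adjusted p = 0.0227). Of 14 negative acute phase genes 2 were called, Apoa4 (-1.60 ± 0.30, adjusted p = 0.00216) and Fetub (-0.66 ± 0.19, adjusted p = 0.0322), both lower as the 3 positive ones were. Without that library the 3 positive genes were not called (adjusted p = 0.0536, 0.0578 and 0.067), nor was Fetub (adjusted p = 0.132), while Apoa4 was (-1.92, adjusted p = 0.000837).

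In the same comparison, where 3.29% of all genes tested fell and 3.48% rose, 4 of 31 genes of interleukin-6, interleukin-1 and NF-kB signalling were called, all lower. Il6st encodes gp130, the shared signalling subunit of the interleukin-6 family receptors, and fell by 0.73 ± 0.12 on the log2 scale (adjusted p = 0.000421) to 261 ± 22.5 CPM in KO, against 434 ± 110 CPM in WT (SD, n = 4 each). Osmr, the oncostatin M receptor (-1.08 ± 0.28, adjusted p = 0.0196), Irak1 (-0.32 ± 0.06, adjusted p = 0.00248) and Il1rap (-0.30 ± 0.09, adjusted p = 0.0366), which carry interleukin-1 signals, also fell. Of 19 liver transcription factors 2 rose, Dbp (2.27 ± 0.45, adjusted p = 0.0026) and Tef (0.94 ± 0.18, adjusted p = 0.00188), both also clock output genes, and Xbp1 fell (-0.47 ± 0.12, adjusted p = 0.0125). Of 23 genes of the glucocorticoid receptor and its targets 4 were called, all lower, Zbtb16 (-1.93 ± 0.37), Pck1 (-1.50 ± 0.33), Glul (-0.65 ± 0.16) and Klf9 (-0.73 ± 0.21). Of 14 clock genes 4 rose, Per3, Per2, Tef and Dbp, and 1 fell. Without the retina-transcript library Il1rap (adjusted p = 0.145), Klf9 (adjusted p = 0.0593) and the clock gene that fell were not called, Dbp stood at 1.45 and Tef at 0.71, and the other genes named here kept their calls. Cdkn1a, of the receptor's targets, was called only then (1.13, adjusted p = 0.0116).

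In 60-day males 2 genes of these 6 lists were called, 1 of 19 liver transcription factors and 1 of 14 negative acute phase genes. Of all genes tested 0.209% were called there. Cebpb, which encodes a C/EBP factor of the acute phase response, fell (-1.01 ± 0.17, adjusted p = 0.00792; 37.4 ± 6.77 CPM in KO and 75.2 ± 6.96 CPM in WT, SD, n = 4 each). Apoa4, an apolipoprotein, fell too (-1.46 ± 0.30, adjusted p = 0.032). At 30 days Xbp1 fell in KO females (-0.54 ± 0.12, adjusted p = 0.0323), the 1 gene of these lists called at that age in either sex. Of all genes tested 0.3% were called in 30-day females and 0.0545% in 30-day males.

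Markers of other cells were read beside the fall in 60-day females. Of 53 markers tested of hepatocytes, Kupffer cells, neutrophils, lymphocytes, endothelial cells, stellate cells, cholangiocytes and erythroid cells 1 was called, the cholangiocyte marker Epcam (0.54 ± 0.11, adjusted p = 0.00437). All 5 retina markers tested were higher, and without the library named above 1 was, Abca4 (1.98, adjusted p = 0.000195). Summed Kupffer cell markers were 661 to 925 CPM in KO females and 752 to 1230 CPM in WT females. Summed neutrophil markers were 2.84 to 5.48 CPM in KO females and 1.34 to 2.21 CPM in WT females, where Mpo was at 0. These levels are low, and of the 8 neutrophil markers 3 passed the filter and 0 were called. Summed stellate cell markers were 421 to 440 CPM in KO females and 267 to 405 CPM in WT females, with Col1a2 at 0 in both. Hepatocyte sums overlapped. The part of these cells in the fall of the acute phase genes was not tested.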

How the data were processed

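Counts of reads per gene were deposited by the authors for all 32 libraries, with 17327 genes and separate lines for reads on no feature (18.05% to 21.18%) and ambiguous reads (0.262% to 0.648%), which were left out. A deposited table of log2 values of 11344 genes equalled log2 CPM computed anew (prior count 0.5, and 1 on the total of the listed genes) to within 0.001, and was used as an alternative. Per the labels' protocols, RNA was taken with Trizol and made into stranded messenger RNA libraries. Cufflinks, limma, STAR and Rnor_5.0, the rat assembly, are named per the submitters' processing notes, with tool roles and settings not given in the sources used here.

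Tests used edgeR 4.0.16 (R 4.3.3). Genes were kept by filterByExpr at a minimum count of 10, libraries were scaled by TMM, and 8 group means were fitted robustly by quasi-likelihood to 32 libraries, with 24 residual degrees of freedom and a biological coefficient of variation of 0.148. P-values were adjusted by Benjamini and Hochberg over 11002 genes within a contrast. DESeq2 1.42.0, limma 3.58.1 (voom and trend), other scalings, filters and fits, a clock score, the title number and leaving out each library were alternatives. The code was tested on simulated data. Replicates are separate rats by their labels, numbered in the order of the series, which pairs no animals. No 2 replicates of the 48 pairs agreed within sampling noise (chi-square over degrees of freedom, 10.6 to 55.6).

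The 10 genes, the lists and the tests were chosen with earlier results of these data known, so a pattern in them is no independent evidence. Named genes were the 10, Serpina6, the 2 closest genes of each member (1 of them is not reported here), and from every list the 4 or fewer called genes of smallest adjusted p in each comparison of KO with WT. Promoter windows came from RefSeq on GRCr8, which is not the authors' assembly.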

Additional observations from a re-analysis of the deposited data

Results flagged for a closer look

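In 3 of 72 groups of 4 libraries, 1 library lay far from the other 3 by Dixon's test, where chance gives about 1 in 20. Hp stood at 6571 CPM in male KO replicate 1 of 30 days, below the other 3, and at 12099 CPM in male WT replicate 1 of 60 days, above the other 3. Itih3 stood at 5572 CPM in female KO replicate 2 of 60 days, above the other 3 and still below all WT females.

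The KO effect differed between 60 and 30 days in females for Orm1 (-1.58), Saa4 (-0.72) and Itih3 (-0.52), as log2 differences of fold changes by edgeR's interaction test. Itih3 was called in 16 of 16 fits that left out 1 library, and Orm1 and Saa4 in 10 of 16 each. None of them was called in a fit to the groups compared or with the clock score. The change with age differed between males and females in KO for Orm1 (1.58), Saa4 (1.04), Itih4 (-0.63), Fga (0.79), Fgb (0.78) and Fgg (0.77). In WT it differed for Saa4 (0.66), Itih4 (-0.57), Fga (0.45), Fgb (0.46) and Fgg (0.41). Fgg in WT kept its call in 10 of 16 fits that left out 1 library.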

How the results depend on the processing

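No fold change of a called gene changed sign under any alternative run. The count of called genes for KO against WT in 60-day females was 7, and 7 as well under the other scalings, filters and tools. It was 1 in a fit to the groups compared, 3 in a fit to the 16 libraries of the age, 0 with the clock score as a covariate and 4 to 8 with 1 library left out. The age-by-genotype count in females was 3, but 0 in a fit to the groups compared and 0 with the clock score, 1 with the title number as a covariate (an alternative added after seeing the data), and 1 to 3 with 1 library left out. For 60 against 30 days the count was 3 in KO males and 3 in WT males by library size only, and 3 and 2 with the deposited log2 values, against 5 and 7. For males against females in 30-day KO it was 1 (Itih4) by library size only, by DESeq2, by limma-voom, in a fit to the groups compared and with the clock score, against 0. The contrasts of sex by age gave 3 to 5 in WT and 6 to 7 in KO with 1 library left out, and 4 in KO with the clock score, where Orm1 and Itih4 lost their calls. Without scaling, 18 of 80 group levels moved by more than 1 SD. The share of all genes called under each alternative is not given in this section, and the causes were not tested. Depth limits what can be said of A2m, with 15 reads in all. No paired analysis was possible because replicate numbers here follow the order of the series and link no animals.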
